A study of Mus musculus with 4 samples.

Results

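The genes described here encode inflammasome sensors, their adaptor, their caspases and the cytokines those caspases process. The list held 10 genes: Naip1, Naip2, Naip5, Nlrp3, Nlrc4, Pycard, Casp1, Casp4, Il1b and Il18. Every probe whose platform annotation gave one of these symbols was taken, which found 15 of the 45281 probes on the array and 9 of the 10 genes. No probe carried the symbol Naip1, so Naip1 was not analysed here.

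Sorted peritoneal macrophages were profiled on 4 Illumina bead arrays, 1 per sample of total RNA. The 2 control samples came from C57BL/6 mice whose genotype is labelled only as control, and the labels do not say whether these mice carried Cre. The 2 Mac-Gata6 KO samples came from C57BL/6 mice with floxed Gata6 and LysM-cre, a Cre expressed from the lysozyme M locus and therefore in myeloid cells generally. All mice were untreated and 8 to 16 weeks old, and the labels do not say whether the replicates of a group were separate animals or pools. The p-values therefore reflect only how far these samples vary, and that variation may be technical. The series asks which genes depend on GATA6, a transcription factor that among macrophages marks those resident in the peritoneal cavity.

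Inflammasomes are cytosolic complexes that form when a sensor protein meets a microbial product or a sign of cell damage. The sensor recruits caspase-1, often through the adaptor ASC (gene Pycard), and caspase-1 then cuts the precursors of the cytokines interleukin-1 beta and interleukin-18 and the pore-forming protein gasdermin D. In mice NAIP proteins bind parts of bacteria, NAIP5 flagellin and NAIP2 a rod protein of secretion systems, and each then engages NLRC4. NLRP3 answers to many signs of membrane or ion disturbance, while mouse caspase-11, encoded by Casp4, binds bacterial lipopolysaccharide directly. In resting macrophages Nlrp3 and Il1b are known to be low until a Toll-like receptor signal induces them.

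Upstream sequences are shown for the 3 genes that fell in the knockout, and for Naip2 as the paralog of Naip5 with which it can be compared. Each window runs from 250 bases before to 50 bases after an annotated gene start, written 5′ to 3′ along the gene, from the RefSeq table of GRCm38.p6. Capitals mark hexamers that GATA factors bind (AGATAA or AGATAG, as well as TGATAA or TGATAG) and a core bound by ETS factors (AGGAAGT), all on either strand. The motifs were chosen with the results known.
Naip5, chr13:100247287-100247586, minus strand: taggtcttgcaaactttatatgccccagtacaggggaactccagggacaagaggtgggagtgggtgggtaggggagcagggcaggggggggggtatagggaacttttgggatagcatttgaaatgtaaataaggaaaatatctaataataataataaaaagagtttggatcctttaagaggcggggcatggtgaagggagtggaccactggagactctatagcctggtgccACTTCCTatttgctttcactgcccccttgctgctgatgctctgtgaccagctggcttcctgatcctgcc
Naip2, chr13:100202073-100202372, minus strand: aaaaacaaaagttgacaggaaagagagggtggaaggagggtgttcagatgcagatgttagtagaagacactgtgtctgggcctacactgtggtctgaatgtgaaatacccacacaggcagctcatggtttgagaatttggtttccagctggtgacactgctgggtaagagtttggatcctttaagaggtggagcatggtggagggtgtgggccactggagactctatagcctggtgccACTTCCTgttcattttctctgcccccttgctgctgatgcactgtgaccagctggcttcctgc
Nlrc4, chr17:74459059-74459358, minus strand: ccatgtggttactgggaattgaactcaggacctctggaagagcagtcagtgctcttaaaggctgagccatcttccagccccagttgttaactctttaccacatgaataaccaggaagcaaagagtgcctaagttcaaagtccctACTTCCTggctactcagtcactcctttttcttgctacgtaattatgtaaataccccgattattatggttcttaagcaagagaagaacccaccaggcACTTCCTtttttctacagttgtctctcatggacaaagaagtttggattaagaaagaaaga
Nlrp3, upstream start, chr11:59541319-59541618, plus strand: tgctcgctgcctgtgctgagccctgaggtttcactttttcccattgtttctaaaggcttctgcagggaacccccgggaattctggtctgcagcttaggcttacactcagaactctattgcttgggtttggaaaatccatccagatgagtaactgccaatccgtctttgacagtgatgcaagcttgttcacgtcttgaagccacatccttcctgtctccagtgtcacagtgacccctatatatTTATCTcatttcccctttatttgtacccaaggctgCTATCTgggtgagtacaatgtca
Nlrp3, downstream start, chr11:59542436-59542735, plus strand: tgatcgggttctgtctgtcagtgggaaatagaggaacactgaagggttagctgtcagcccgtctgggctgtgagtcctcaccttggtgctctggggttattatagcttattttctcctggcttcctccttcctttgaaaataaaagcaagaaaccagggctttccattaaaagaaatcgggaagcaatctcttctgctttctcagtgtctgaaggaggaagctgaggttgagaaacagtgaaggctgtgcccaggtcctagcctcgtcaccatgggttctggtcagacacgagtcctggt

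All 10 listed genes matched the promoter table, with 12 windows. The window of Naip5 held no GATA hexamer and 1 ETS core, 19 bases before the start. That of Nlrc4 held no GATA hexamer and 2 ETS cores, 106 and 10 bases before the start. The upstream window of Nlrp3 held 2 GATA hexamers and the downstream window none. Among the other listed genes a GATA hexamer lay in the windows of Casp4 and Il1b and an ETS core in those of Naip2 and Pycard. Of all 32851 windows in the table, 29.8% held at least 1 of the GATA hexamers and 9.35% the ETS core, and these motifs did not overlap each other in the windows printed. A match is a run of letters and says nothing of binding. The Naip2 and Naip5 windows shared an identical run of 34 bases that ended in the ETS core, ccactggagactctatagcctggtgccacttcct. The Naip genes neighbour each other on chromosome 13 in that assembly, and the probe sequences were not used here, so a Naip probe may also have read a paralog's transcripts.

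Gata6 was lower in the knockout, with log2 normalized intensities of 13.77 and 13.66 in control against 13.07 and 12.83. The log2 change was -0.76 ± 0.16 (SE of the fit, limma adjusted p = 0.0333), so that 59.0% of the control signal remained. With any 1 array left out this probe stayed lower but did not pass (adjusted p from 0.0707 to 0.144). A dimmer Gata6 probe was above background in control alone (fitted limma adjusted p = 0.0160). Its control mean lay 1.74-fold above the mean of the lowest detected signals of the knockout arrays, a ratio without sampling error. This probe was kept only through the control arrays, so it had to differ. It passed without knockout replicate 2 (0.0382) but not without knockout replicate 1 (0.0837), and without either control array it failed the detection filter. The sources used here do not place either probe relative to the floxed part, so these values alone do not check the labels. Detected probes, those with a detection p-value under 0.05, made up 35.5% to 36.4% of each array. Over the kept probes, arrays of 1 group differed by a median of 0.17 (control) or 0.19 (knockout) on the log2 scale, and arrays of different groups by 0.26 to 0.30. The 7 macrophage markers with a probe, among them Csf1r, Lyz2 and Mertk, were detected on all 4 arrays. Of these Adgre1 (-1.56 ± 0.18, limma adjusted p = 0.0037) and Fcgr1 (-2.94 ± 0.14, 0.00017) fell in the knockout, and 5 did not pass.

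In the knockout 3 of the listed genes fell, 0 rose and 6 did not pass the test (limma, Benjamini-Hochberg adjusted p under 0.05). Naip5 fell to 46.1% of the control signal, Nlrc4 fell to 65.0%, and Nlrp3 sank below the detection limit. Over all 11628 genes with a kept probe, 5.41% were called lower and 5.59% higher. At an unadjusted p under 0.05, 5 of the listed genes were lower and 1, Il1b, higher, where 13.9% of all genes were lower and 12.8% higher. The knockout arrays both lay below both control arrays for 6 of the 9 genes, where 29.2% of all genes did so, and above them for 2, where 27.6% did. Nlrp3 was kept only through the control arrays and Il1b only through the knockout arrays, so these genes had to differ. Of the 7 genes detected on all arrays, 2 fell and 0 rose, where 4.70% and 4.77% of all 10009 genes detected on all arrays did so. The median log2 change was -0.38 over the 9 genes and -0.01 over all genes. In RNA from a cell population, fewer cells of a type and less RNA per cell cannot be told apart.

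**Figure D1:**
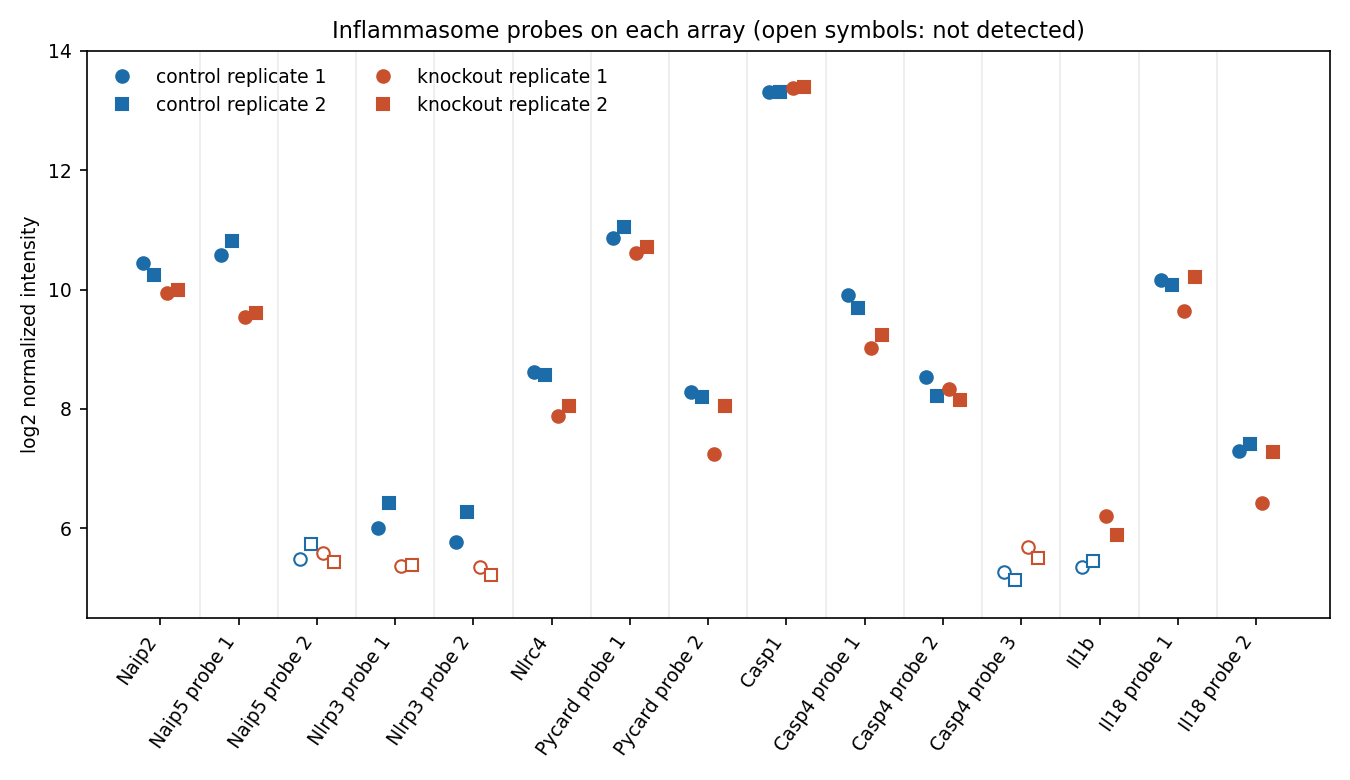
Log2 normalized intensity (vertical axis) of each of the 15 probes on each array, with circles for replicate 1 and squares for replicate 2. Open symbols mark arrays on which the probe was not detected. The Naip5 probe 1 control values of 10.57 and 10.81 sit above the knockout values of 9.54 and 9.61, while the Casp1 values of all 4 arrays lie between 13.31 and 13.39.

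Among the sensors, Naip5 fell by its brighter probe, which had deposited intensities of 1747 and 1699 in control and 838 and 940 in the knockout. After normalization these were 10.57 and 10.81 in control against 9.54 and 9.61 in the knockout (log2), so the groups lay well apart. The log2 change was -1.12 ± 0.16 (SE, 95% interval -1.50 to -0.74, limma adjusted p = 0.0080), a 2.17-fold fall. Without knockout replicate 1 the change was -1.08 and did not pass (adjusted p = 0.0575), nor did it pass a test against a change of at least 1.5-fold (adjusted p = 0.162). A second Naip5 probe, built to the same transcript record, was detected on no array and stayed between 5.44 and 5.73.

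Naip2, the sensor of rod proteins, lay at 10.45 and 10.24 in control and 9.94 and 9.99 in the knockout (log2). Its knockout values were both below its control values, yet the log2 change of -0.38 ± 0.15 did not pass (95% interval -0.75 to -0.01, adjusted p = 0.185). Whether Naip2 and Naip5 changed by different amounts was not tested. Naip6 and Naip7, the remaining family members on the wider pathway list, had no probe under those symbols.

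Nlrc4, the partner that NAIP proteins engage, fell as well. Its probe read 8.61 and 8.57 in control and 7.89 and 8.05 in the knockout (log2), with no overlap. The log2 change was -0.62 ± 0.15 (95% interval -0.98 to -0.26, adjusted p = 0.0488), close to the threshold. With any 1 array left out the change stayed between -0.70 and -0.54 but did not pass (adjusted p from 0.104 to 0.187), nor did it pass with median scaling (0.0838) or without the detection filter (0.0732).

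Nlrp3 was dim in these untreated cells. Its brighter probe read 6.01 and 6.43 in control, where it was detected, and 5.37 and 5.38 in the knockout, where it was not well above background (log2). The fall was at least 1.41-fold, a bound that sets the control mean against the lowest detected signal of each knockout array (fitted adjusted p = 0.0381). The second Nlrp3 probe was detected on the same arrays, at 5.77 and 6.27 in control. Its control mean lay 1.23-fold above the same limit, and its fitted change did not pass (adjusted p = 0.0758). Both probes were kept only through the control arrays, so both had to differ, and their likeness adds no evidence. The deposited intensities of the brighter probe were 184 and 198 in control and 146 and 158 in the knockout. Medians of whole arrays were 136 to 146. The fitted log2 change of the brighter probe was -0.84, against -0.32 (adjusted p = 0.0765) where no background was corrected and -0.32 (0.0766) with the authors' values. It did not pass without knockout replicate 1 or 2 either (0.147 and 0.131), and without either control array it failed the detection filter.

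The adaptor gene Pycard did not pass by either probe. Its brighter probe read 10.86 and 11.05 in control and 10.61 and 10.71 in the knockout (log2), and the change was -0.29 ± 0.15 (95% interval -0.66 to 0.08, adjusted p = 0.291). The dimmer probe read 8.29 and 8.20 in control against 7.25 and 8.05 in the knockout, a change of -0.60 ± 0.27 (adjusted p = 0.222). Knockout replicate 1 was the low array here. Without knockout replicate 2 the change of the dimmer probe was -0.99 and passed (0.0498), and without knockout replicate 1 it was -0.20 (0.593).

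The caspase genes neighbour each other on chromosome 9 in the RefSeq assembly, and neither passed. Whether Casp1 and Casp4 changed by different amounts was not tested. Casp1, the protease that matures both cytokines, had a strong signal of 13.31 in both controls against 13.38 and 13.39 in the knockout samples (log2). Its change of 0.08 ± 0.14 did not pass, and the 95% interval from -0.26 to 0.42 bounds the change at well under 2-fold either way. The control values are identical because quantile normalization gives equal ranks equal values, and the deposited intensities were 11195 and 9294.

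Casp4 had 3 probes built to 1 transcript record. The brightest read 9.91 and 9.69 in control against 9.02 and 9.23 in the knockout, with no overlap. Its log2 change of -0.67 ± 0.16 missed the threshold (95% interval -1.07 to -0.27, adjusted p = 0.0533). It passed in 8 of the 14 alternative settings that kept all arrays, such as those with the authors' values (-0.58, adjusted p = 0.0024) and with 1 probe per gene (-0.67, 0.0446). The second probe read 8.53 and 8.22 in control and 8.33 and 8.15 in the knockout, which overlapped, with a change of -0.14 ± 0.17 (adjusted p = 0.691). The remaining probe was detected on no array, between 5.14 and 5.68. The detected probes therefore disagreed in size, and their mean had a change of -0.40 (0.141).

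**Figure D2:**
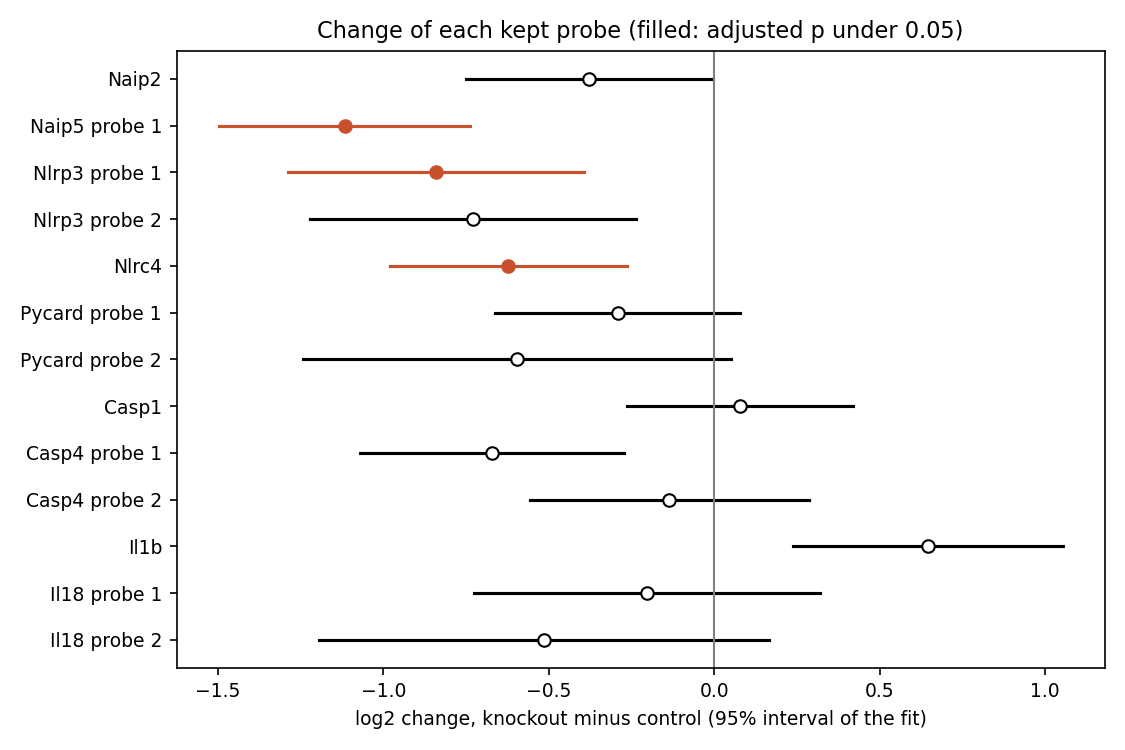
Log2 change of the 13 kept probes, knockout minus control (horizontal axis), with the 95% interval of the fit as a bar and filled points where the adjusted p was under 0.05. Only Naip5 probe 1, Nlrp3 probe 1 and Nlrc4 are filled, and 11 of the 13 points lie below 0. Some genes have more than 1 point, and by gene 7 of 9 lie below 0, where the median change of all genes was -0.01. Through the detection filter both Nlrp3 points had to lie below 0 and the Il1b point above it.

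Of the cytokine genes, neither passed. The Il1b probe was not detected in control, at 5.35 and 5.46, and was detected faintly on both knockout arrays, at 6.20 and 5.90 (log2). The knockout mean lay 1.25-fold above the mean of the lowest detected signals of the control arrays, a ratio without sampling error. The fitted log2 change of 0.65 ± 0.17 missed the threshold (adjusted p = 0.0633). The deposited intensities were 154 and 155 in control and 183 and 181 in the knockout, close to the median of 136 to 146 of whole arrays. Without background correction the fitted change was 0.24 (adjusted p = 0.188).

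Il18 was well above background throughout. Its brighter probe read 10.16 and 10.08 in control and 9.63 and 10.21 in the knockout (log2), so that the groups overlapped and the knockout arrays lay farther from each other than the group means did. The change was -0.20 ± 0.22 (95% interval -0.73 to 0.32, adjusted p = 0.622). The dimmer probe, built to another transcript record, read 7.30 and 7.42 in control and 6.42 and 7.27 in the knockout, a change of -0.52 ± 0.28 (adjusted p = 0.311). As with the dimmer Pycard probe, knockout replicate 1 was the low array. The change of this Il18 probe was -0.087 (adjusted p = 0.838) without knockout replicate 1 and -0.94 (0.0594) without knockout replicate 2.

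The Naip5 pattern was compared with that of 8975 other named genes by the root mean square difference of the 4 array values, each centred on its gene's mean. Closest were Cytip (0.045), Agap1 (0.045) and Frrs1 (0.046), with log2 changes of -1.04 ± 0.15, -1.11 ± 0.17 and -1.16 ± 0.17. Without knockout replicate 1 these 3 did not pass (adjusted p from 0.0577 to 0.0749), nor did Cytip (0.0509) and Agap1 (0.0551) without control replicate 2. These 4 arrays fall into 2 groups, so likeness reflects little beyond the size of the change.

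The wider pathway was described with 80 further genes in 5 lists, of which 70 had a probe and 54 a kept one. Of these 3 rose, 4 fell and 47 did not pass, and the median log2 change was 0.08. Among all genes 11.0% were called in either direction.

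Among the other sensors 0 of 5 kept genes passed (limma), and 6 more were on the array but not kept, among them the pyrin gene Mefv. Aim2, the sensor of cytosolic DNA, had a change of -0.36 ± 0.15 (adjusted p = 0.178), the peptidoglycan sensors Nod2 and Nod1 had changes of -0.64 ± 0.27 (0.205) and -0.32 ± 0.14 (0.221), and Nlrc5 one of 0.33 ± 0.14 (0.206). Nlrx1, a mitochondrial NLR protein, had a change of 0.66 ± 0.17 (0.0599). It passed as higher in some alternative settings, such as with the authors' values (0.58, adjusted p = 0.0026) and the mean of probes (0.63, 0.0417). In others it did not, such as cyclic loess (0.66, 0.0586). Its remaining kept probes had changes of 0.71 ± 0.21 (0.0895) and 0.53 ± 0.19 (0.135). The Nod2 change was -1.01 without knockout replicate 1 and -0.28 without knockout replicate 2, and passed in neither case. At an unadjusted p under 0.05, 1 of the 5 was higher and 1 lower, where 26.7% of all genes passed in either direction.

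Of 21 kept genes for activation and regulation, 1 rose and 3 fell, where 5.59% of all genes were called higher and 5.41% lower. The changes were positive for 11 and negative for 10. At an unadjusted p under 0.05, 4 were higher and 5 lower, where 12.8% of all genes were higher and 13.9% lower. Interferon-inducible guanylate-binding protein genes Gbp3 and Gbp2, whose family helps expose bacteria to caspase-11, fell by 1.10 ± 0.16 and 0.79 ± 0.16 on the log2 scale (adjusted p = 0.0097 and 0.0290). Their relatives Gbp5 and Gbp7 had changes of 0.27 ± 0.14 (0.287) and 0.12 ± 0.14 (0.667). Irf2, a transcription factor known to drive gasdermin D expression, fell by 1.04 ± 0.15 (0.0080). Pstpip1, which encodes a pyrin-binding protein, rose by 1.32 ± 0.18 (0.0075), from 6.76 to 8.08 (log2). Irf8, needed for Naip expression in mouse macrophages, had a change of 0.28 ± 0.20 (95% interval -0.20 to 0.75, adjusted p = 0.437). The ATP receptor gene P2rx7 had a change of 0.63 ± 0.16 (0.0570). Gbp2 lost its call whichever array was left out (adjusted p from 0.0708 to 0.133). The second Gbp3 probe had a change of -0.75 ± 0.22 (0.0896). By its brighter probe Gbp3 passed without control replicate 2 (adjusted p = 0.0212) but not without any 1 of the other arrays (0.0502 to 0.0626), and Irf2 did not pass without knockout replicate 1 (0.0544).

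Of 6 kept genes for death caspases and pore proteins, 1 rose and 0 fell. Ninj1, whose protein ruptures the plasma membrane of dying cells, rose by 0.68 ± 0.14 (adjusted p = 0.0321), though not with any 1 array left out (0.112 to 0.128). Gsdmd, the pore protein that caspase-1 and caspase-11 cut, lay at 11.18 in control and 11.26 in the knockout (log2), a change of 0.07 ± 0.15 (95% interval -0.28 to 0.43, adjusted p = 0.806). Casp8 and Casp2 had changes of 0.49 ± 0.17 (0.131) and -0.41 ± 0.15 (0.149), and Casp6 one of 0.27 ± 0.18 (0.422). At an unadjusted p under 0.05, 2 genes of the list were higher and 1 lower, where 12.8% of all genes were higher and 13.9% lower.

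Of 5 kept IL-1 family ligands, receptors and inhibitors, 1 fell and 0 rose. Il1a, the cytokine that shares its receptor with interleukin-1 beta, went from 7.66 to 6.86 (log2), a change of -0.80 ± 0.15 (adjusted p = 0.0254), though not with any 1 array left out (0.0726 to 0.112). Its second kept probe had a change of -0.55 ± 0.34 (0.365). The receptor antagonist gene Il1rn and the interleukin-18 binding protein gene Il18bp had changes of 0.52 ± 0.18 (0.128) and -0.44 ± 0.16 (0.147), and the receptor subunit gene Il18rap one of 0.16 ± 0.19 (0.655). At an unadjusted p under 0.05, 2 of these genes were lower and 1 higher, where 13.9% of all genes were lower and 12.8% higher. The receptor gene Il1r1 was detected on no array.

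In IL-1 signalling 1 of 17 kept genes rose and 0 fell. Nfkb2, an NF-kB subunit gene of the non-canonical pathway, rose by 1.06 ± 0.16 (adjusted p = 0.0094), but did not pass without control replicate 1 (0.0516) or without knockout replicate 1 (0.0660). Its partner Relb had a change of 0.53 ± 0.14 (0.0706), and the adaptor gene Myd88 one of 0.19 ± 0.15 (0.474). The inducible regulator gene Nfkbiz and the receptor-associated kinase gene Irak1 had changes of 0.57 ± 0.18 (0.111) and -0.42 ± 0.15 (0.141). At an unadjusted p under 0.05, 3 of the 17 were higher and 1 lower, where 12.8% of all genes were higher and 13.9% lower.

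**Figure D3:**
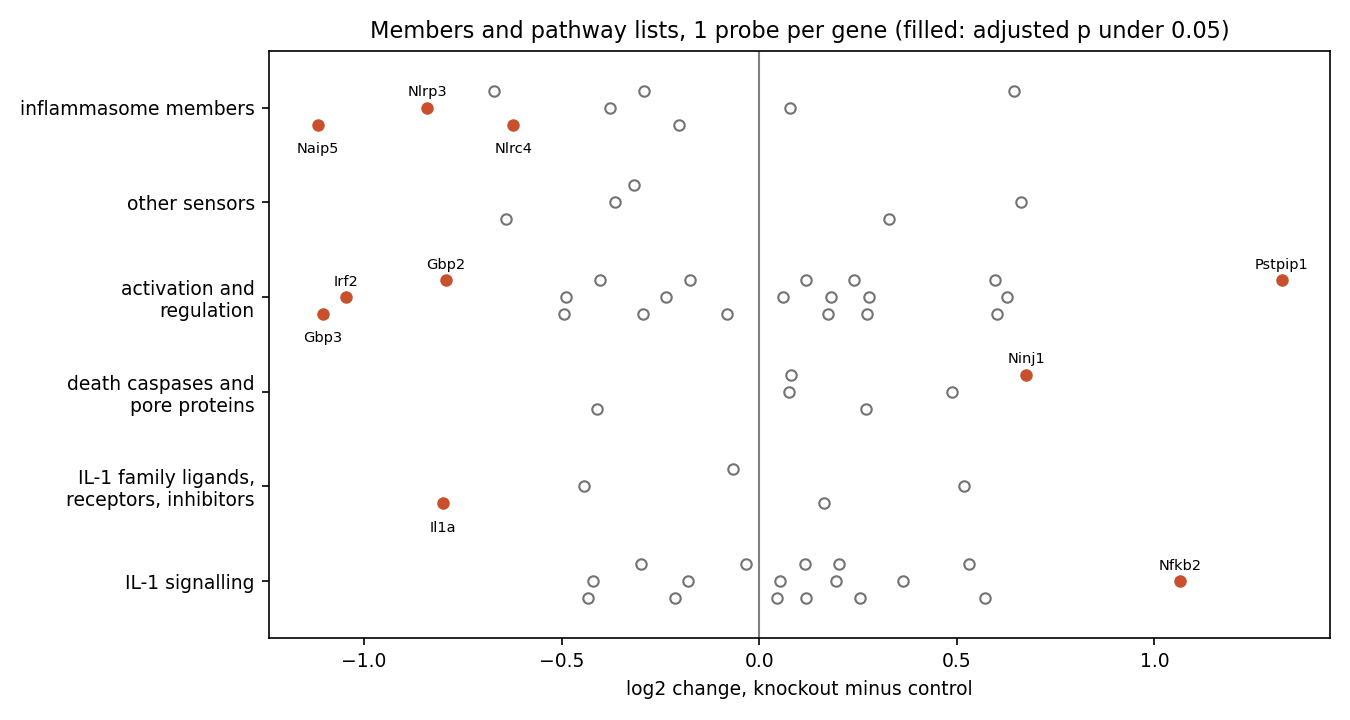
Log2 change, knockout minus control (horizontal axis), of the 9 listed inflammasome genes and of the 54 kept pathway genes by list, 1 probe per gene, with filled and named points where the adjusted p was under 0.05. The members hold 3 filled points, all below 0, and the pathway lists hold 4 below and 3 above 0.

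Markers of cell types moved with these results, and their part in them was not tested. Over all genes with a kept probe 5.41% were called lower and 5.59% higher. Of 6 large peritoneal macrophage markers 4 fell, Nt5e, Selp, Cd9 and the targeted gene Gata6 itself. Icam2 (-0.56 ± 0.15, limma adjusted p = 0.0616) and Timd4 (-0.08 ± 0.18, 0.815) did not pass. The summed normalized intensity of the 6, Gata6 included, lay between 107997 and 113055 in control and between 44693 and 45424 in the knockout. Of 6 small peritoneal macrophage markers 5 rose, with sums of 4615 to 5163 in control and 55286 to 57979 in the knockout. Irf4 (0.47 ± 0.17, limma adjusted p = 0.143) did not pass. The knockout sums mostly follow Folr2, Mrc1 and Lyve1, with knockout means of 14.46, 13.96 and 13.65 (log2). Of 4 kept monocyte markers 3 rose, Ccr2, Plac8 and F13a1 (sums of 19182 to 20637 against 40543 to 46468), and Ly6c1 was detected on no array. The sums mostly follow F13a1, the brightest, at 14.14 and 14.06 in control and 15.16 and 15.34 in the knockout (log2). Ccr2 is also counted among the small peritoneal macrophage markers. Of 7 markers common to macrophages 2 fell (105938 to 107624 against 92265 to 99272). B cell markers rose, 3 of 3 kept (593 to 633 against 1245 to 1450), with Pax5 detected on no array, as did 3 of 4 erythroid markers (182 to 194 against 866 to 882) and 1 of 3 kept mast cell markers (163 to 214 against 264 to 306), with Kit detected on no array. By the probes read, Ccr2, the erythroid markers Hbb-bs and Hba-a1 and the mast cell marker Mcpt4 were detected in the knockout alone. They were kept only through those arrays, so they had to differ. Of neutrophil markers only S100a8 was kept, and it fell (1420 to 1605 against 609 to 846). S100a9, Retnlg, Cxcr2, Ngp, Mmp8 and Mpo were detected on no array. S100a8 and the B cell marker Cd79b each lost their call with 3 of the 4 arrays left out in turn, and the mast cell marker Cpa3 with each of the 4. Of T and NK cell markers only Klrb1c was kept, did not pass, and lay near background. All 5 dendritic cell and all 4 eosinophil markers were detected on no array.

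**Figure D4:**
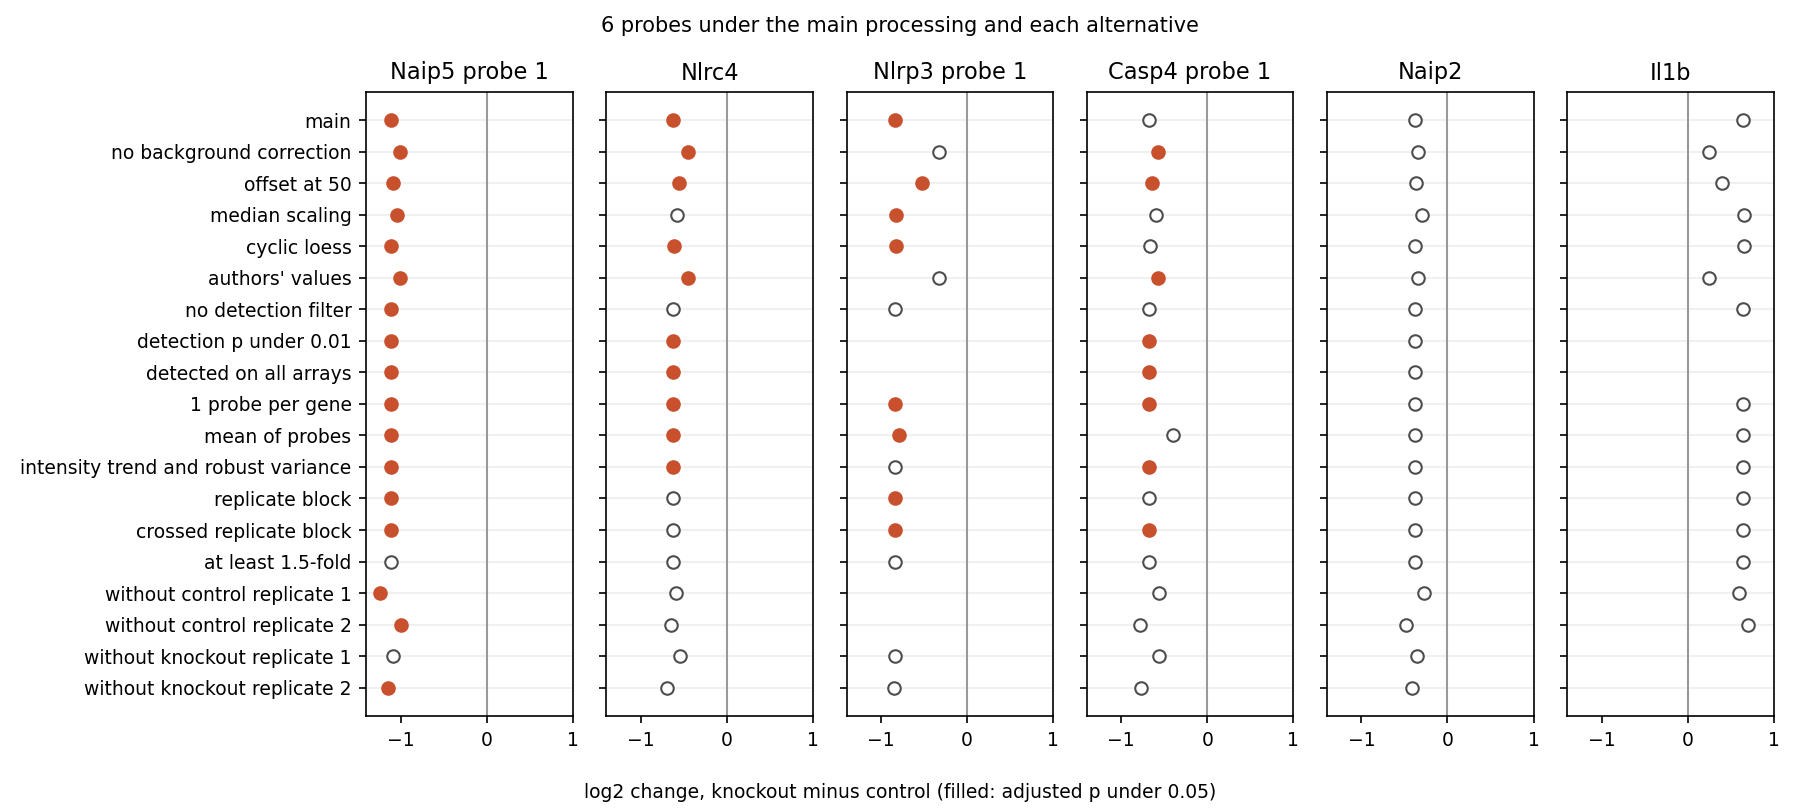
Log2 change, knockout minus control (horizontal axis), of 6 probes under the main processing and each alternative (vertical axis), with filled points where the adjusted p was under 0.05 and no point where the probe was not kept. Naip5 probe 1 is filled in 13 of 14 alternatives with all arrays and stays between -1.12 and -1.01, while Il1b and Naip2 are never filled.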

How the data were processed

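Per the file headers, the authors deposited non-normalized probe intensity values beside a detection p-value for every probe and array. In the other deposited table, the authors' own processed intensity values were on a linear scale by their range (column medians of 142.05 to 142.14), and how they were made is not stated. They gave nearly the same changes as quantile normalization without background correction, such as -1.01 for Naip5 probe 1 in both. These 2 alternatives are therefore not separate checks. With limma 3.58.1 in R 4.3.3, the background was estimated from the detection p-values, an offset of 16 added, and values quantile-normalized and put on a log2 scale. Probes with a detection p-value under 0.05 on 2 or more arrays were kept, 16713 of 45281. Limma's lmFit and eBayes tested knockout against control for every kept probe, two-sided, with p adjusted over all of them, and a gene was read by its kept probe of highest mean. The platform annotation named 1 gene for 34885 probes, several for 18 and none for 10378, and 34807 matched RefSeq GRCm38.p6 by gene identifier. Values after ± are the fit's standard errors. Precision is limited by the number of arrays.

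The procedure was tested on simulated data, but the outcome is not given here, so no error rate for these arrays follows from it. The members, lists and motifs were chosen with earlier results of these data known. Named genes were all members, Gata6, the 3 genes nearest to the member with the largest fitted change, and up to 4 genes of each list with the smallest unadjusted p. Markers are given mostly as counts. Nod1, Gbp5, Gbp7, Irf8, P2rx7, Gsdmd, Myd88, Mefv, Il1r1 and the markers beyond that rule were named after their values were seen. The alternatives tried are given in the closing section.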

Additional observations from a re-analysis of the deposited data

How the results depend on the processing

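Over all kept probes 941 were higher and 845 lower. These counts were 1515 and 1462 both with the authors' values and without background correction, 1499 and 1452 with a variance trend on intensity and robust fitting, 247 and 233 against at least 1.5-fold, and 275 to 560 and 309 to 446 with 1 array left out. Of the inflammasome genes 3 were lower, but 1 with no detection filter, 0 against at least 1.5-fold and 0 to 1 with 1 array left out, while 0 were higher in any of these settings. Pathway genes called higher, 3 in the main processing, were 8 without background correction, with the offset at 50, with the authors' values, with detection p under 0.01 and with the variance trend, 7 when detected on all arrays, 5 with 1 probe per gene, 0 against at least 1.5-fold and 1 to 2 with 1 array left out. Those called lower, 4, were 7 without background correction, with the authors' values and with the variance trend, 0 against at least 1.5-fold and 0 to 1 with 1 array left out. The fold threshold drops small changes by construction, and leaving out arrays leaves fewer degrees of freedom. For the other differences the cause was not tested. With 1 array left out the log2 change spanned 0 for Casp4 probe 2 (-0.29 to 0.020), Il18 probe 1 (-0.48 to 0.085), Il18rap (-0.061 to 0.39), Klrb1c (-0.61 to 0.37) and Fcer1a (-0.30 to 0.70), none of which passed. Over the named genes, settings that kept all arrays gave 892 values with the same direction and side of the threshold, 36 that lost it and 51 that newly passed.

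No label says that equal replicate numbers mark a shared animal or day, and replicate differences in control and knockout correlated at -0.14 across probes. With the replicate block 842 probes were higher and 749 lower, and 2 inflammasome genes were lower, Nlrc4 having an adjusted p of 0.0855, as were 4 pathway genes, with 2 higher, Ninj1 having one of 0.0617. A crossed replicate block, added after seeing the data, called 930 probes higher and 837 lower, and 3 inflammasome genes lower, with Casp4 (adjusted p = 0.0451) in place of Nlrc4 (0.0558). Slides are not named, so no slide block was fitted. Signal over background limits the genes and probes detected in 1 group only, among them Nlrp3, Il1b and the dimmer Gata6 probe.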
